A study of Mus musculus with 2 samples.

Results

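B cells made up 127 of the 7189 cells that passed the cell filters in a single-cell RNA sequencing study of mouse pancreas, 74 of 4616 in the library of normal pancreas and 53 of 2573 in the library of pancreatic tumours. They were chosen by measured values. A cell counted as a B cell when it had at least 500 genes, at least 1000 unique molecular identifiers (UMIs, 1 for each captured transcript) and at most 10% mitochondrial UMIs, and when Cd79a, Cd79b and Ms4a1 together reached 5 per 10000 UMIs. Cells with 50 or more per 10000 UMIs of the collagen and decorin genes Col1a1, Col1a2, Col3a1 and Dcn, or with 10 or more of the macrophage genes Csf1r, C1qa, C1qb and Tyrobp, were left out. Levels of these genes therefore describe the choice and test nothing.

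All mice were Rosa26-mTmG/+;Fabp4-Cre, with a Cre recombinase under the Fabp4 promoter, which is active in fat cells, capillary endothelium and some macrophages. In them a cell turns green once Cre has acted in it or in an ancestor, whatever its present type. The normal library was sorted for GFP from pancreata of mice aged 6 to 9 weeks and was labelled as pancreatic stellate cells. The tumour library was labelled as cancer-associated fibroblasts and was sorted for GFP and podoplanin (PDPN) 21 days after FC1245 pancreatic cancer cells had been implanted in the pancreas of 8-week-old mice. No sort aimed at B cells, mice were pooled within each library, and the tissues were digested with different enzymes, so that group, digestion and gate cannot be told apart. Each group is 1 library, so there was no test between groups.

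B cells carry an antigen receptor whose signal is passed on by CD79A and CD79B, and most also carry CD20, the product of Ms4a1. Follicular B cells circulate between blood and lymphoid follicles, marginal zone B cells sit at the edge of the splenic follicles, and B-1 cells are a self-renewing population of the body cavities that makes much of the natural antibody of the mouse. Plasma cells are the antibody-secreting end stage, with a large endoplasmic reticulum and little CD20.

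The normal matrix held 5437 barcodes with 36675424 UMIs and the tumour matrix 2942 barcodes with 33285044 UMIs. B cells were 1.603% of the normal cells (1.26 to 2.01%, exact Clopper-Pearson) and 2.06% of the tumour cells (1.55 to 2.69%), shares that describe the sorts and not the tissues. Normal B cells had 1344 to 22416 UMIs with a median of 9821.5, and tumour B cells 1632 to 13973 with a median of 2675. Over all filtered cells the median was lower in the normal (7151.5 UMIs) than in the tumour library (10189 UMIs). Summed over B cells there were 718761 normal and 178797 tumour UMIs, so that a floor of 3 UMIs was 4.17 and 16.8 CPM (counts per 1000000 UMIs of the sum). Intervals of shares, of CPM and of folds are 95% intervals and reflect counting error, not how mice differ. The libraries shared 4 barcodes, and 0 of them were B cells.

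The label was checked against 12 B cell genes that the rule did not use, among them Ly6d, Mzb1, Fcmr, Cd22, Cd37, Blk, Bank1, Pax5, Ebf1, Fcrla and Spib. A median of 10 of them were found per normal and 7 per tumour B cell. All 53 tumour cells and 73 of the 74 normal cells had at least 3. The exception was a normal cell of 1605 UMIs that met the rule with a single UMI and had 1 of the 12, Ebf1. This cell had no Cd79a or Cd79b UMI, but 6 of Fabp4 and 6 of the endothelial genes Cdh5, Kdr, Egfl7 and Esam. It was kept among the 74 and is not among the 5 cells with endothelial RNA described further on. Just inside the threshold stood normal cells at 6.23, 7.26 and 9.01 and a tumour cell at 10.0 per 10000 UMIs, and just outside it cells at 4.41 and 2.06. In the normal library 82 cells reached the threshold and 8 of them were left out, 5 for fibroblast genes and 4 for macrophage genes, 1 of them for both, while in the tumour library none was left out. In the sum over B cells against all other cells of the same library, and without the 3 genes of the rule, 10 of 11 measured genes of a B cell identity list were at least 2-fold higher in the normal library (20.9% of all genes measured were) and 15 of 15 in the tumour library (23.1%). Since the cells were chosen on genes of that kind, these counts describe the class. Ebf1, a factor needed for B cell development, was at 511 CPM in normal B cells and at 571 CPM in the other normal cells.

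The levels of the receptor chain genes Cd79a and Cd79b, both used by the rule, are given as a description. Per 10000 UMIs, Cd79a ranged over normal B cells from 0 to 55.5 with a median of 19.2 and over tumour B cells from 2.51 to 91.3 with a median of 26.1. The sums were 1845 CPM (1747 to 1947) and 2506 CPM (2279 to 2749). Cd79b was at 1080 and 1035 CPM and was found in 73 of 74 and 48 of 53 cells. Ms4a1 was at 1241 and 990 CPM and was missing in 4 normal and 9 tumour cells. Ly6d, a surface protein that appears early in B cell development, was at 1681 and 1907 CPM, and Fcmr, the IgM Fc receptor, at 693 and 515 CPM. Mzb1, a chaperone of antibody-secreting cells, differed in how it was spread: it was found in 71 of 74 normal but 28 of 53 tumour cells, and 1 tumour cell held 58.7% of the Mzb1 UMIs of the tumour B cells. With each cell thinned to 2000 UMIs, which left out 2 normal and 10 tumour cells, Mzb1 was found in 79.2% (68.0 to 87.8%) of normal and 53.5% (37.7 to 68.8%) of tumour B cells. In cells chosen by the fibroblast genes, which should lack it, Mzb1 was found unthinned in 1.25% of normal (median 9181 UMIs) and 0.0880% of tumour cells (median 10466 UMIs). The plot of all 127 cells shows the 6 markers in both libraries, as the rule required for Cd79a, Cd79b and Ms4a1 together. The genes below them were in part chosen after their values had been seen.

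**Figure D1:**
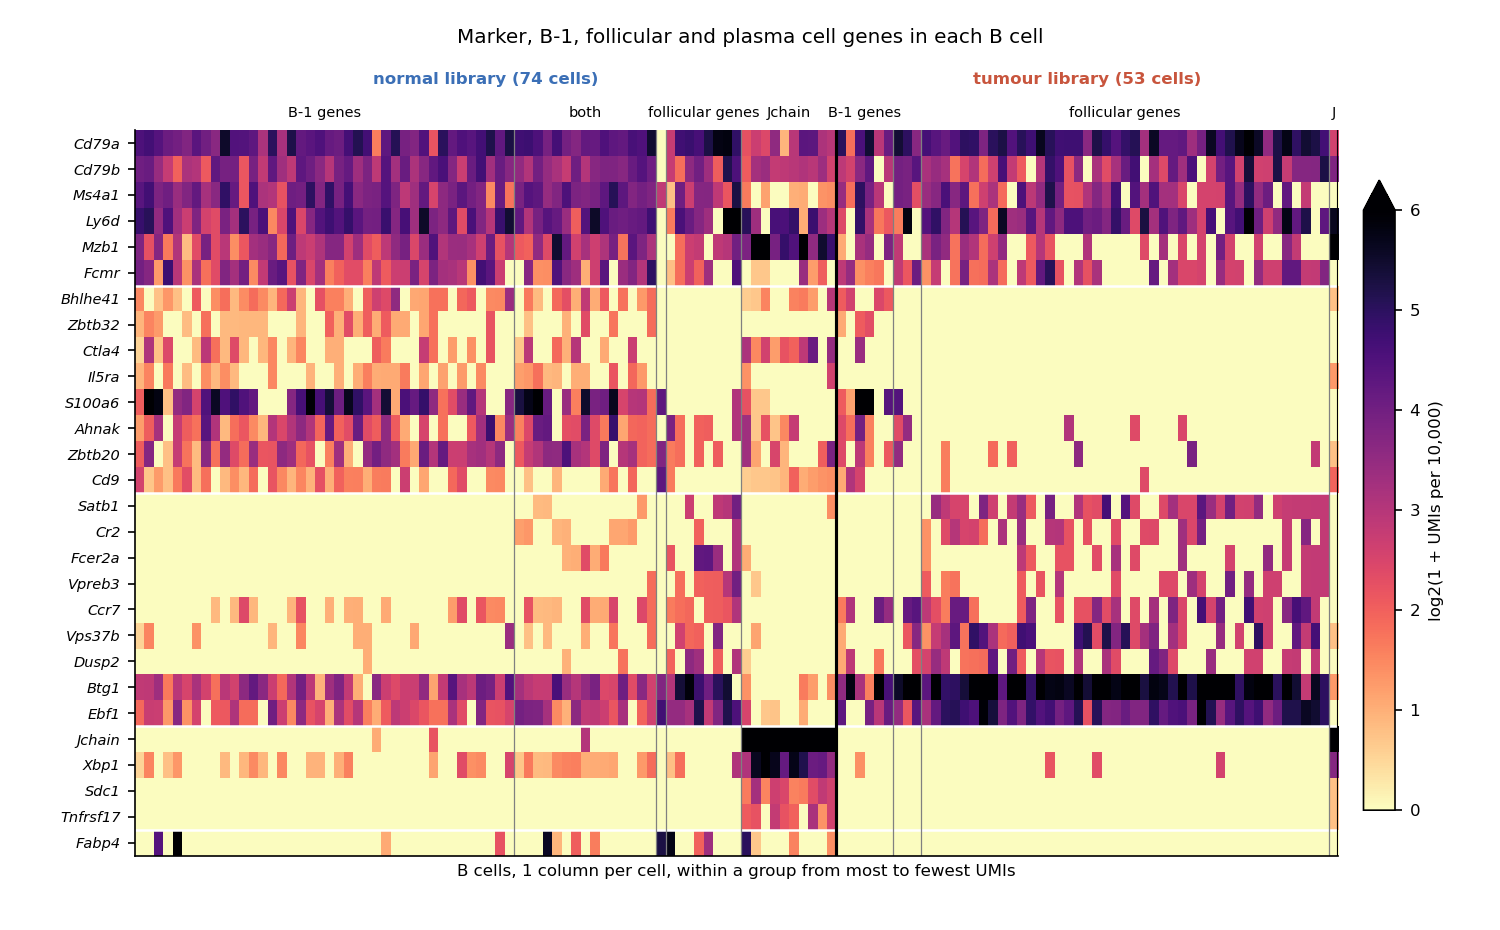
Each column is 1 of 127 B cells and each row 1 gene, and the colour gives log2(1 + UMIs per 10,000). Most of the 74 normal cells held B-1 genes, most of the 53 tumour cells follicular genes, and Jchain reached the top of the scale in 10 normal cells and 1 tumour cell (marked J).

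Within the B cells, genes known from B-1 cells and genes known from follicular cells marked different cells in the tumour library but overlapped in the normal library. Cells were split, after these values had been seen, by any UMI of Bhlhe41, Zbtb32, Ctla4 or Il5ra (transcription factors, a co-inhibitory receptor and a cytokine receptor chain found in B-1 cells) and by any UMI of Satb1, Cr2, Fcer2a or Vpreb3 (a chromatin organiser, complement receptor 2, CD23 and a surrogate light chain relative of follicular and other B-2 cells). The latter are called follicular genes for short, but Cr2 stands in the marginal zone list described below. Cells that hold them need not be follicular. Cells with at least 100 UMIs of Jchain, which links antibody multimers, were set apart first. In the normal library 40 cells had the B-1 genes only, 8 the follicular genes only, 15 both, 1 neither and 10 were Jchain-high. Thus 15 of the 23 normal cells with a follicular gene that were not Jchain-high also had a B-1 gene. In the tumour library 6 had the B-1 genes only, 43 the follicular genes only, none both, 3 neither and 1 was Jchain-high. As shares, 54.1% (42.1 to 65.7%) of normal and 11.3% (4.27 to 23.0%) of tumour B cells had the B-1 genes only, and 10.8% (4.78 to 20.2%) and 81.1% (68.0 to 90.6%) the follicular genes only. These are ranges of a split and not cell types, and 6 of the 40, 1 of the 6, 1 of the 8 and 6 of the 43 cells rest on a single UMI.

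Depth moved with this split, in each library in the same way. Cells with B-1 genes only had a median of 10364 normal and 5612 tumour UMIs, and cells with follicular genes only 3324.5 and 2435. Deeper cells show more genes, so the split was repeated at 2000 UMIs per cell. Then 41.7% (30.2 to 53.9%) of normal and 9.30% (2.59 to 22.1%) of tumour B cells had the B-1 genes only, 11.1% (4.92 to 20.7%) and 67.4% (51.5 to 80.9%) the follicular genes only, 6.94% and 0% both, and 26.4% and 20.9% neither. The direction of both differences was the same as unthinned. The genes had been chosen with these values known and the cells were the same. The shares and their repeat therefore describe the split and test nothing.

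**Figure D2:**
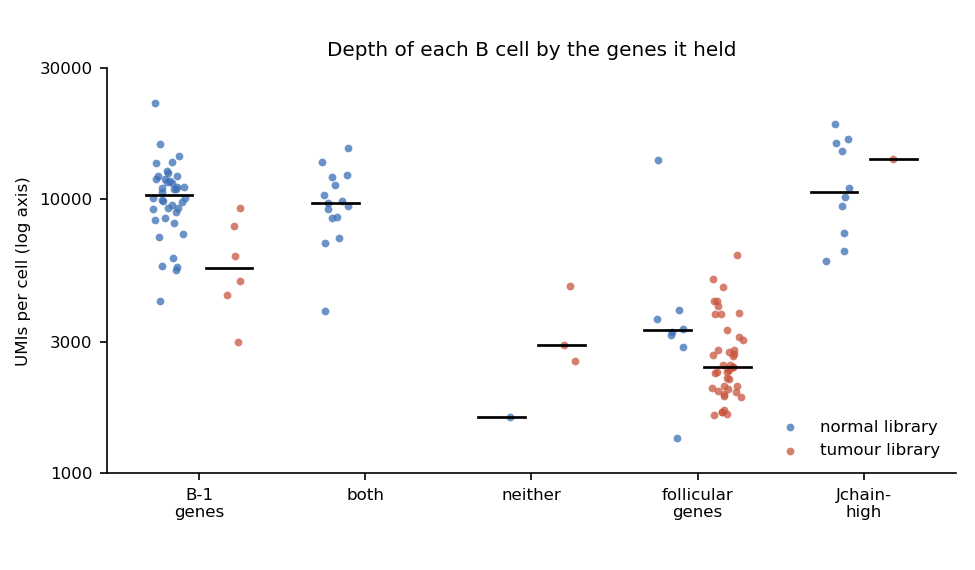
UMIs per cell (log axis) for each B cell, by the genes it held and by library, with the median of each group as a line. In both libraries cells with B-1 genes lay higher than most cells with follicular genes, with medians of 10364 against 3324.5 UMIs in the normal and 5612 against 2435 in the tumour library.

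Gene by gene, the 4 B-1 genes were the more frequent in normal B cells. Bhlhe41 (GRCm38 chromosome 6, 145858243 to 145865558) was found in 50 of 74 normal and 5 of 53 tumour cells, and after thinning in 20.8% (12.2 to 32.02%) and 4.65% (0.568 to 15.8%). It was also found in 22.1% of normal (median 9181 UMIs) and 27.3% of tumour fibroblast-rule cells (median 10466 UMIs), but in 0.434% of normal (median 4001 UMIs) and none of 76 tumour cells chosen by endothelial genes. Zbtb32 was found in 28 normal and 3 tumour cells, Ctla4 in 39 and 1, and Il5ra, the interleukin 5 receptor chain, in 33 and 1. The tumour Ctla4 UMIs all came from 1 cell. Spn, which encodes CD43, another B-1 cell protein, was found in 15 and 1 cells. Cd5, a marker of a subset of B-1 cells, was found in 6 normal cells with 1 UMI each and in no tumour cell, below the floor of 16.8 CPM.

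The follicular genes ran the other way. Satb1 (chromosome 17, 51736187 to 51833290) was found in 8 of 74 normal and 33 of 53 tumour cells, after thinning in 5.56% (1.53 to 13.6%) and 51.2% (35.5 to 66.7%). Fibroblast-rule cells of the tumour library had a Satb1 UMI in 12.01% at a median of 10466 UMIs, against 62.3% of tumour B cells at 2675 UMIs. Cr2 (chromosome 1, 195136811 to 195176716) was found in 9 normal and 21 tumour cells, after thinning in 2.78% (0.338 to 9.68%) and 30.2% (17.2 to 46.1%). Fcer2a was found in 11 and 15 cells and Vpreb3 in 8 and 18, and the thinned intervals of these last genes overlapped between the libraries.

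**Figure D3:**
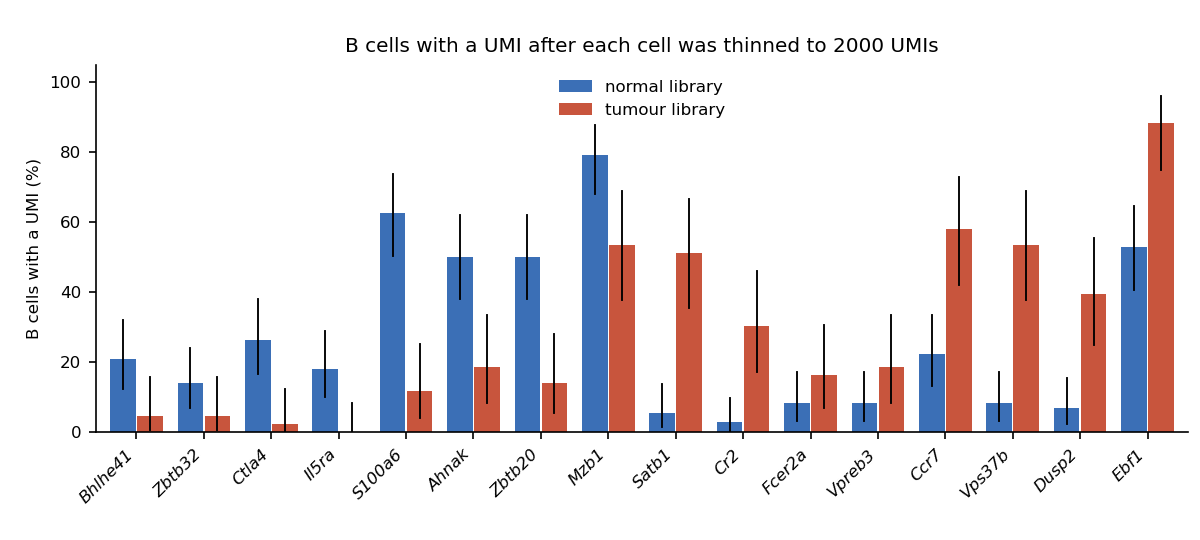
Share of B cells with a UMI of each gene after each cell was thinned to 2000 UMIs, over 72 normal and 43 tumour cells, with 95% Clopper-Pearson intervals of counting error as lines. The first 7 genes were found in more normal cells (Bhlhe41 20.8% against 4.65%), while Satb1, Cr2, Ccr7, Vps37b, Dusp2 and Ebf1 were found in more tumour cells (Satb1 51.2% against 5.56%).

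Some genes that did not enter the split differed between its sides in each library. S100a6, a calcium-binding protein (chromosome 3, 90612882 to 90624181), reached 2071 CPM over the 40 normal and 2589 CPM over the 6 tumour cells with B-1 genes, where 83 of the 93 tumour UMIs lay in 2 cells and the level without the highest one was 1683 CPM. It was at 28.1 CPM (1 UMI) in the 8 normal cells with follicular genes and had 0 UMIs in the 43 tumour ones, where the floor was 25.3 CPM. Other cells of these libraries had S100a6 at 2722 and 3151 CPM. Zcwpw1, a histone reader named in B-1 cell signatures, was at 459 and 835 CPM in cells with B-1 genes, against 0 UMIs (floor 84.4 CPM) and 16.9 CPM in cells with follicular genes. Lgals1, a galectin, was at 459 and 668 CPM against 0 and 42.2 CPM. Its 24 tumour UMIs lay in 3 of the 6 cells, 18 of them in 1 cell, and without that cell it was at 215 CPM. Ebf1 was higher in cells with follicular genes, at 1464 and 2429 CPM against 452 and 891 CPM, gaps of 3.24-fold (2.34 to 4.43) and 2.73-fold (1.89 to 4.06). Vps37b, a subunit of the ESCRT-I sorting complex, was at 225 and 1020 CPM against 38.4 and 27.8 CPM, and at 124 CPM in the normal cells with follicular genes without the highest cell. Without the highest cell Ebf1 was at 562 CPM in tumour cells with B-1 genes. Ahnak, a large scaffold protein of the plasma membrane, was at 521 and 445 CPM in cells with B-1 genes. In cells with follicular genes its level was 33.7 CPM for tumour but 647 CPM for normal cells. However, 19 of those 23 normal UMIs lay in 1 cell of 13881 UMIs that also held 73 Fabp4 UMIs, and without it the level was 185 CPM. In tumour cells with B-1 genes Ahnak was at 236 CPM without the highest cell. Other genes differed in 1 library only or, with all cells kept, in opposite directions. Plac8 was 8.79-fold higher in cells with B-1 genes in the normal library and at a ratio of 0.919 (0.620 to 1.33) in the tumour library, and Fos was at ratios of 0.393 and 3.50. Without the cell with 73 Fabp4 UMIs, Fos was at 231 CPM (5 UMIs) in normal cells with follicular genes. Normal cells with B-1 genes had it at 221 CPM.

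The Jchain-high cells had the gene pattern of plasma cells and are called plasma-like. The 10 normal ones held 206 to 2070 Jchain UMIs each, 10303 of the 10314 in all normal B cells, and the next cell held 7. The tumour one held all 150 Jchain UMIs of the tumour B cells and was the deepest tumour B cell, with 13973 UMIs. Sdc1, which encodes the plasma cell surface protein CD138, was found in all 10 normal plasma-like cells and in no other normal B cell. Tnfrsf17, the survival receptor BCMA, was found in 8 of the 10 and in no other normal B cell, and both genes had 1 UMI in the tumour plasma-like cell. Xbp1, the factor that expands the secretory apparatus, was at 3726 CPM in the normal plasma-like cells, and Mzb1 at 4735 CPM. Ms4a1 had 10 UMIs in 6 of these 10 cells (85.5 CPM) and none in the tumour one. Jchain itself was found in 30 of 1595 normal fibroblast-rule cells. Plasma-like cells were 13.51% (6.68 to 23.5%) of normal and 1.89% (0.0478 to 10.1%) of tumour B cells, and in the normal library they held 16.3% of all B cell UMIs.

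Tumour and normal B cells were then compared as sums. A minimum of 200 CPM in one or the other sum left 632 genes, and 53 of them (8.39%) were at least 2-fold higher in tumour B cells with an interval that excluded 1, and 43 (6.8%) at least 2-fold lower. The median log2 fold was -0.00. The genes furthest up were Satb1, Vps37b, Dusp2 and Cr2, and those furthest down Jchain, Igfbp7, Txndc5 and Sptbn1, leaving out Fabp4 and Ccl4, which are described further on. Without the 11 plasma-like cells 61 genes were higher and 38 lower, and 49 and 28 of them were among the 53 and 43.

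**Figure D4:**
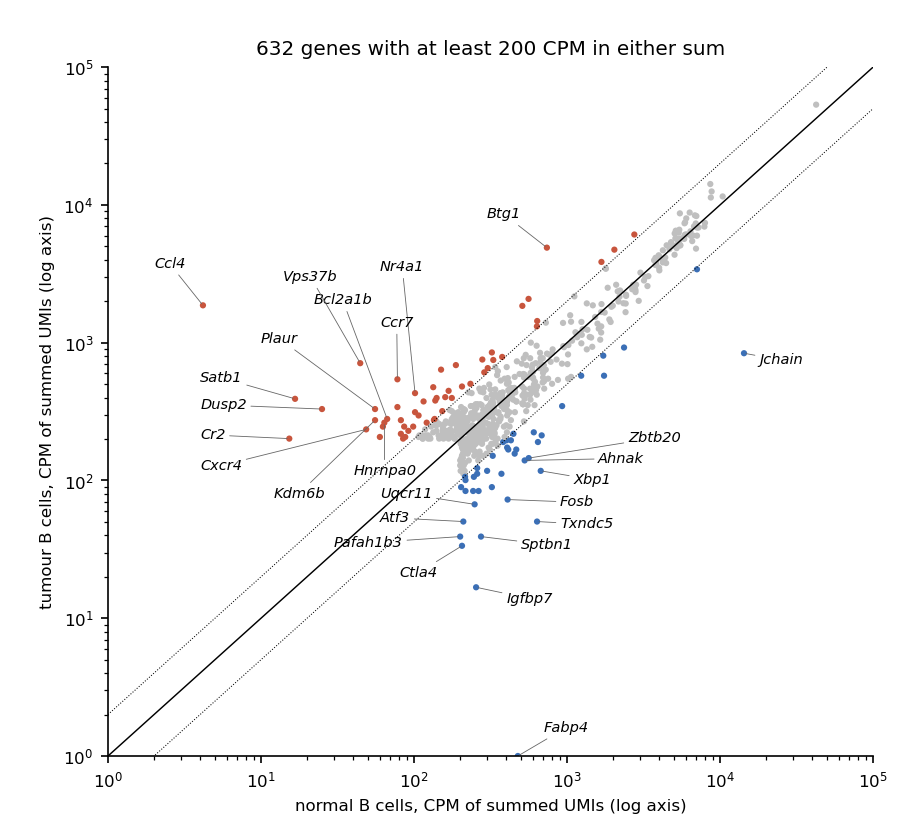
CPM of 632 genes in summed normal (x) and tumour (y) B cells, both on log axes, with a line of equal level and dotted lines at 2-fold. The 53 genes called higher in tumour B cells are red and the 43 called lower are blue. Genes under 1 CPM are drawn at 1 CPM, as is Fabp4, which had 0 tumour UMIs.

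Among genes higher in tumour B cells, Satb1 stood at 16.7 and 392 CPM in the normal and tumour sums, 23.4-fold higher (12.6 to 47.5). Vps37b (chromosome 5, 124004641 to 124032270) went from a per-cell median of 0 to 4.01 per 10000 UMIs, and its sums were 44.5 and 710 CPM, 15.95-fold apart (10.8 to 24.3). Dusp2, a phosphatase that dampens MAP kinase signals, was at 25.04 and 330 CPM and Cr2 at 15.3 and 201 CPM, both 13.2-fold higher. Ccr7, the chemokine receptor that guides lymphocytes into lymph nodes, was found in 32 of 74 normal and 34 of 53 tumour cells and was 6.96-fold higher (4.96 to 9.86). Btg1, an anti-proliferative factor of resting lymphocytes, showed the gap in nearly every cell. Per 10000 UMIs it ran from 0 to 57.4 with a median of 6.36 in normal cells and from 1.43 to 144 with a median of 54.3 in tumour cells, and its sums of 739 and 4899 CPM were 6.63-fold apart (5.95 to 7.40). Plaur, the urokinase receptor, was 5.93-fold higher, Kdm6b, a histone demethylase, 4.92-fold, and Cxcr4, the receptor for CXCL12, 4.82-fold. Nr4a1, an orphan nuclear receptor switched on by antigen receptor signals, was 4.24-fold higher (3.04 to 5.92). Bcl2a1b, an anti-apoptotic BCL2 relative, was 4.19-fold and Hnrnpa0, an RNA-binding protein, 4.11-fold higher. Bcl2a1b belongs to a family of near-identical copies between which reads may be split. The thinned shares of Vps37b (8.33% against 53.5%), Ccr7 (22.2% against 58.1%) and Dusp2 (6.94% against 39.5%) pointed the same way as the sums.

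Among the genes lower in tumour B cells were genes of the plasma-like cells. Jchain (chromosome 5, 88519809 to 88527891) was at 14350 and 839 CPM, 17.1-fold lower (14.6 to 20.2), Txndc5, a disulfide isomerase of the endoplasmic reticulum, at 637 and 50.3 CPM, 12.7-fold lower, and Xbp1 at 673 and 117 CPM, 5.73-fold lower. With female normal cells only, Xbp1 was at a log2 fold of 0.22, and Txndc5 was no longer called, at -1.65. Ctla4 was 6.14-fold lower, and Pafah1b3, a subunit of an acetylhydrolase, 5.12-fold lower. In the normal library both were higher in the 10 plasma-like cells (504 and 376 CPM) than in the 40 cells with B-1 genes (151 and 195 CPM). The UMIs behind these levels were 59 and 44 against 63 and 81. Ctla4 was not called with female normal cells only, at -2.16. With the 11 plasma-like cells left out all 5 genes lay below the 200 CPM minimum and none was called, with Jchain at 11 and 0 UMIs and log2 folds of -1.05 for Txndc5, -1.72 for Xbp1, -2.02 for Ctla4 and -2.19 for Pafah1b3. Igfbp7, a secreted protein of vessels, and Sptbn1, a spectrin, were 15.2-fold and 7.001-fold lower. Both fell below the 200 CPM minimum when 5 normal cells with endothelial RNA, described further on, were left out, at log2 folds of -1.06 and -1.74. Igfbp7 did so without the plasma-like cells too, at -3.42. The other lower genes by this rule kept their call in both cases, but Atf3 was not called with female normal cells only, at -1.77. Fosb, a subunit of the AP-1 factor, was 5.63-fold lower (3.24 to 10.7), Atf3, a stress-induced factor, 4.17-fold, Zbtb20, a zinc finger factor of B-1 and plasma cells, 3.87-fold (2.60 to 5.99), Ahnak 3.78-fold (2.52 to 5.92) and Uqcr11, a subunit of respiratory complex III, 3.71-fold. Zbtb20 was found in 61 of 74 normal and 12 of 53 tumour cells and Ahnak in 60 and 9.

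The B cell subset lists are given by counts and medians, beside the median of -0.00 over all genes measured, of which 8.39% were called higher and 6.8% lower. Of 6 measured members of a B-1 cell list 4 fell at least 2-fold, Ctla4, Ahnak, S100a6 (3.03-fold) and Lgals1 (2.01-fold), with a median log2 fold of -1.30. Apoe and Zcwpw1 were at -0.28 and -0.53. Without the plasma-like cells 3 of 5 were lower with a median of -1.05. Of 5 measured members of a follicular list Satb1 and Ccr7 rose, with a median of 0.48, while Klf2 and Fcmr were at -0.04 and -0.43. Of 3 marginal zone genes Cr2 rose, while Plac8 and Mzb1 were at -0.40 and -0.65. Of 5 plasma cell genes Jchain, Xbp1 and Creld2 (3.15-fold) fell, with a median of -1.66. Sec11c, a signal peptidase subunit, was at -0.44. Without the plasma-like cells 2 plasma cell genes were measured and neither was called, with a median of -0.72.

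Lists of general B cell genes are given beside the shares over all genes measured, 8.39% called higher and 6.8% called lower. Of 18 measured members of the identity list Ebf1 alone was called, at 511 and 1851 CPM, 3.63-fold higher (3.12 to 4.22), and the list median was 0.12. Btk, the kinase behind the receptor, was at a log2 fold of 0.95, and Napsa, an aspartic protease, and Mzb1 were at -0.60 and -0.65. Of 9 measured genes of B cell receptor signalling none was called, with a median of 0.44. Btk was highest at 0.95, and Cd81 and Ptpn6 lowest at -0.10 and -0.11.

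**Figure D5:**
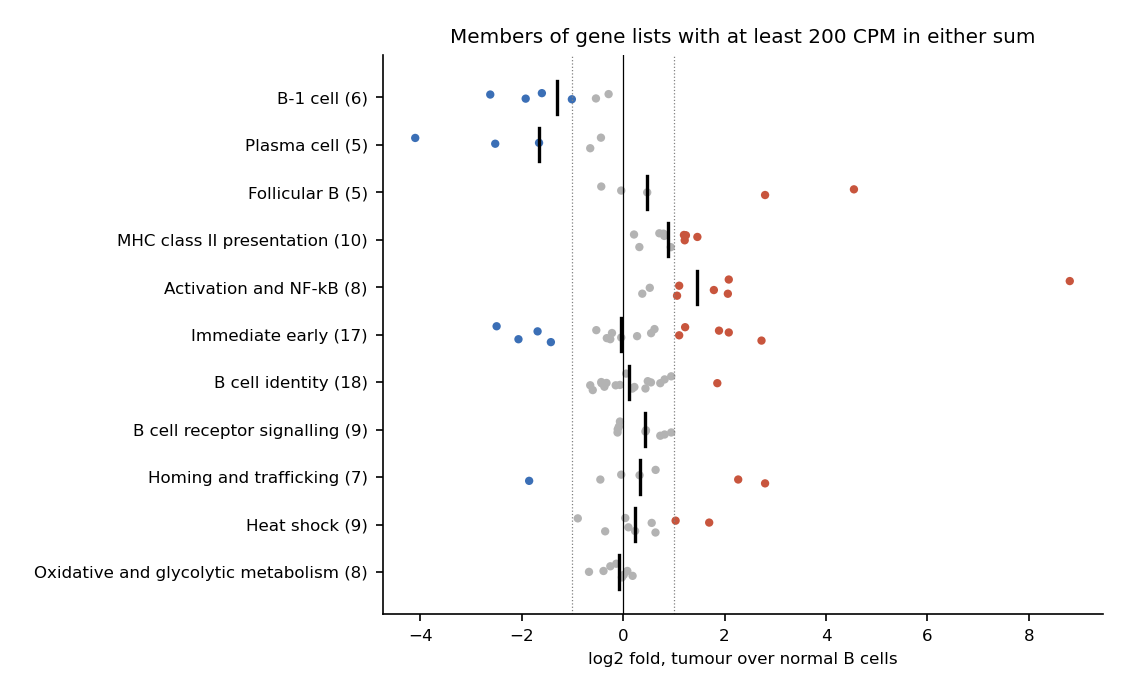
Log2 fold of tumour over normal B cells for each member of 11 gene lists that reached 200 CPM in a sum (number in brackets), with the list's median as a black line, red for members called higher and blue for members called lower. The B-1 cell and plasma cell medians lie at -1.30 and -1.66, those of MHC class II presentation and activation at 0.88 and 1.45, and immediate early genes lie on both sides.

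MHC class II molecules are how B cells show peptides to helper T cells. Of 10 measured members of that list 4 rose at least 2-fold in tumour B cells and none fell, against 8.39% and 6.8% of all genes measured, with a median log2 fold of 0.88. H2-Aa and H2-Ab1, the chains of the I-A molecule, were at 2040 and 4737 CPM and at 1679 and 3859 CPM, 2.32-fold (2.13 to 2.53) and 2.30-fold (2.09 to 2.53) higher. H2-Oa and H2-Ob, the chains of the H2-O regulator of peptide loading, were 2.36-fold and 2.76-fold higher. Cd74, the invariant chain, was at 8641 and 14189 CPM, a log2 fold of 0.72. Ctss, the protease that trims it, and Ifi30 were lowest, at 0.22 and 0.32. Per 10000 UMIs H2-Aa had a median of 22.04 in normal and 52.7 in tumour cells. H2-Aa and H2-Ab1 were called in each of the 17 other settings tried.

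A list of 24 activation and NF-kB genes had 8 measured members. Of these 6 rose, against 8.39% of all genes measured: Ccl4, Nr4a1, Bcl2a1b, Nfkbid (3.46-fold), Cd69 (2.15-fold) and Rel (2.09-fold), with a median of 1.45. Cd83 and Nfkbia were at 0.53 and 0.38. Ccl4, a chemokine, rested on 1 cell. It was at 4.17 and 1868 CPM, but 323 of the 334 tumour UMIs came from a cell of 7981 UMIs with B-1 genes, which also held all 26 Ccl3 UMIs and 22 of the 55 Nfkbia UMIs of the tumour B cells. Of 17 measured immediate early genes 5 rose and 4 fell, against 8.39% and 6.8% of all genes measured, with a median of -0.04. Btg1, Nr4a1, Junb (3.71-fold), Zfp36 (2.34-fold) and Cd69 were higher, and Fosb, Atf3, Fos (3.21-fold) and Jun (2.68-fold) lower. Fos and Jun followed the plasma-like cells, at 2743 and 3504 CPM in the 10 normal ones against 221 and 238 CPM in the 40 normal cells with B-1 genes, though Jun was also at 2308 CPM in the 8 normal cells with follicular genes. Of those 82 Jun UMIs 60 lay in the cell with 73 Fabp4 UMIs, and without it Jun was at 1016 CPM. Without the plasma-like cells neither was called, at log2 folds of -0.33 and -0.24, and 6 members were higher and 2 lower. In the other cells of the libraries the Fos level was 2737 CPM (normal) and 3290 CPM (tumour). The digestion differed between the libraries, and its part in these levels was not tested.

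Receptors for survival and position were measured in part. Beside the counts that follow, 8.39% of all genes measured were called higher and 6.8% lower. Of 4 measured genes of the BAFF and CD40 survival list Bcl2a1b rose and Tnfrsf13b, the receptor TACI, fell 2.03-fold (1.26 to 3.46). Tnfrsf13c, the BAFF receptor, and Mcl1, a survival factor, were at 0.55 and -0.52. Of 7 measured homing genes Ccr7 and Cxcr4 rose and Itgb1, the integrin beta 1 chain, fell 3.61-fold (2.17 to 6.42), with a median of 0.33. Itga4, its partner, was at -0.45. Of 3 measured cytokine genes Tgfb1 rose 2.66-fold (1.73 to 4.05), Ccl4 rose on 1 cell as above, and Ltb, lymphotoxin beta, fell 2.71-fold (1.96 to 3.85).

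Part of the genes above also differed between tumour and normal cells of the same pattern, and others did not. These folds were computed after the split had been made and rest on 6 tumour cells with B-1 genes and 8 normal cells with follicular genes. One of these 8 cells, the one with 73 Fabp4 UMIs, held 13881 of their 35529 UMIs, so follicular values are also given without it. Btg1 was 3.75-fold higher (2.95 to 4.72) in tumour than in normal cells with B-1 genes. Of the 98 tumour UMIs behind this, the highest cell held 44 and the next 31. The tumour cells with the most S100a6 held 1 and 5 of them, and no Ccr7 UMI. Between cells with follicular genes Btg1 was 2.56-fold higher (2.03 to 3.25), and 1.77-fold (1.39 to 2.28) without the cell with 73 Fabp4 UMIs, which is below the 2-fold call. Junb was 3.91-fold and 3.78-fold higher in the 2 patterns, and 4.41-fold (2.49 to 8.64) in the follicular one without that cell. Ccr7 was 8.34-fold (4.29 to 15.9) and 2.30-fold (1.14 to 5.23) higher, and at a ratio of 2.10 (0.917 to 5.92) without that cell. H2-Aa was called in the follicular pattern alone, at 2.37-fold against a ratio of 1.81 between cells with B-1 genes, and without that cell its follicular ratio was 1.56. With all cells kept Ebf1 was called in neither pattern, at ratios of 1.97 and 1.66. The 40 normal cells with B-1 genes also held cells with endothelial RNA, with 100 and 29 Fabp4 UMIs, and 38 remained without them. Against these 38 cells Ebf1 was called higher in tumour cells with B-1 genes, at 2.11-fold. Its follicular ratio was 1.38 without the cell with 73 Fabp4 UMIs. Between cells with follicular genes Dusp2 was at a ratio of 1.18 (0.630 to 2.36), Cxcr4 at 1.42 (0.654 to 3.53) and Cd69 at 1.65 (0.925 to 3.15), none of them called. Without that cell these ratios were 1.03, 1.16 and 1.00. Fos was 2.27-fold higher in tumour cells with B-1 genes and 3.93-fold lower in those with follicular genes, where its ratio without that cell was 0.621 (0.220 to 2.15). Vps37b differed between tumour and normal cells with follicular genes, at 1020 against 225 CPM (2.76-fold without that cell), but stood at 27.8 and 38.4 CPM in cells with B-1 genes. Ltb was lower in tumour cells of both patterns, at 55.7 against 730 CPM and at 312 against 704 CPM. Without that cell the follicular levels of Ltb were 312 against 1062 CPM. Fcer2a, a follicular gene of the split, was lower in tumour than in normal cells with follicular genes. It was at 160 against 591 CPM, 3.69-fold lower (1.89 to 7.25), and 4.61-fold lower without that cell. Satb1 and Cr2, also follicular genes of the split, were 2.62-fold and 5.39-fold higher there, but neither was called without that cell. Since Fcer2a, Satb1 and Cr2 helped to choose these cells, their levels there describe the split and test nothing. S100a6 was at 2589 and 2071 CPM in tumour and normal cells with B-1 genes, with a ratio of 1.25 (0.999 to 1.55).

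The promoter gene of the Cre and the gate gene of the tumour sort were looked for in the B cells. Fabp4, whose promoter drives the Cre (chromosome 3, 10204088 to 10208576), had 343 UMIs in 16 of 74 normal B cells, 477 CPM, and none in the 53 tumour B cells, so that it was at least 28.4-fold lower there against the floor of 3 UMIs over the sum. Of the 343 UMIs 320 lay in 5 normal cells with 29 to 100 each, and these cells also held 9 to 55 UMIs of the endothelial genes Cdh5, Kdr, Egfl7 and Esam. Without them Fabp4 was at 35.6 CPM, against 1914 CPM in the other normal cells. Pecam1, an endothelial gene, was found in 43 of 74 normal and 7 of 53 tumour B cells, and in 38 of 69 normal cells once those 5 were left out. Summed endothelial markers were at 1420.5 CPM in normal B cells and 44.7 CPM in tumour B cells, where 10 of 11 were at 0. Pdpn (chromosome 4, 143267431 to 143299564), the gate of the tumour sort, had 1 UMI in normal and 2 UMIs in tumour B cells, 1.39 and 11.2 CPM, against 65.4 and 397 CPM in the other cells.

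Other cell type markers were summed in the same way. The endothelial sum of 1420.5 CPM in normal B cells stood against 5623 CPM in the other normal cells. Of 11 fibroblast markers 2 in normal and 1 in tumour B cells were at 0, and they summed to 277 and 263 CPM against 23670 and 48996 CPM in the other cells. Of 11 macrophage markers 1 and 6 were at 0, with sums of 237 and 123 CPM. Of 9 T or NK cell markers 6 and 8 were at 0, with Cd3e among them in both, and sums of 33.4 and 5.59 CPM. Of 11 acinar markers none and 7 were at 0, with sums of 391 and 117 CPM. Pericyte markers were all at 0 in tumour B cells and summed to 89.0 CPM in normal B cells. Of 10 markers of plasmacytoid dendritic cells, which share several genes with B cells, 2 and 3 were at 0, with the defining Siglech among them in both, and they summed to 803 and 682 CPM against 1168 and 824 CPM in the other cells.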

How the data were processed

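Both libraries, normal pancreas and tumour, were sequenced from 3′ ends on a 10x Genomics system. The deposited matrices hold raw UMI counts without normalization. Per the submitters' processing notes they were made with Cell Ranger 3.1.0 on mm10, and the deposited barcodes had already been called as cells. The 65 rows that share a symbol with another row were summed to 27933 symbols. Immunoglobulin constant genes were not analysed here, so the planned heavy and light chain classes were not run. The B cells, gene lists and comparisons were chosen with earlier results of these data known.

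UMIs were summed over the B cells of a library and scaled to CPM. A fold divides tumour by normal CPM, and its 95% interval is the exact one for 2 Poisson counts, computed with scipy 1.17.1. A gene was measured with at least 200 CPM in either sum, and called if it was at least 2-fold apart and the interval excluded 1. With 632 genes measured, intervals were not adjusted for their number. Where a sum had 0 UMIs, 3 UMIs served as the floor. Shares carry exact Clopper-Pearson intervals. To compare shares at equal depth, 2000 UMIs were drawn from each cell. UMIs come from the 3′ ends of transcripts, so CPM is not divided by gene length. Doublets were kept, and cells with the top Scrublet scores (scanpy 1.11.5), at 0.8% per 1000 cells, were removed as an alternative.

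Named genes were the 6 given markers, the 12 highest and 12 lowest folds among called genes found in at least 15% of B cells of the higher library (without mitochondrial, ribosomal, sex-linked, unnamed and other cell type marker genes), the top 2 and bottom 2 measured members of described lists, subset genes, Fabp4 and Pdpn. Some genes that the rule takes in are not reported here. Other genes were named after their values were seen: Cd74, Ccl3, Junb, H2-Ab1, Jun, Cd5, Spn and further genes of the patterns. Positions came from GENCODE vM21 on GRCm38, the assembly behind mm10. The fold calculation was tested on simulated sums. Alternatives covered the cell filters, the B cell threshold, doublets, cells with RNA of other types, scaling, the CPM minimum, thinning and sex, and 5 were added after the data had been seen.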

Additional observations from a re-analysis of the deposited data

Results flagged for a closer look

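Barcodes outside the cell filters were not part of any comparison, and some of them met the B cell rule. There were 19 of 821 such barcodes in the normal library (2.31%, 1.40 to 3.59%, exact Clopper-Pearson) and 5 of 369 in the tumour library (1.36%, 0.441 to 3.13%). Among cells that passed the filters the B cell shares were 1.603% and 2.06%. What these barcodes are was not tested.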

How the results depend on the processing

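Against the 53 higher and 43 lower genes, 103 and 88 were called with CPM computed without mitochondrial and ribosomal protein genes, 139 and 115 at a minimum of 100 CPM, and 25 and 23 at 400 CPM, where more or fewer genes were measured. Of the listed genes 37 were called, and 21 at 400 CPM. With 800 genes, 2000 UMIs and at most 5% mitochondrial UMIs the tumour B cell share was 1.17%, since 28 cells remained. With those filters, at 10 per 10000 UMIs, or with 3 UMIs of the rule genes, 100% of normal B cells had at least 3 of the 12 markers, against 98.6%. With female normal cells only, 47 of the 53 higher and 28 of the 43 lower calls were shared, the Xbp1 log2 fold was 0.22, and Txndc5, Ctla4, Atf3, Fos and Jun were not called; the cause was not tested. Vps37b, Ccr7, Btg1, Nr4a1, Fosb, Zbtb20 and Ahnak were called in each of 17 alternatives and Igfbp7 in 9. Alternatives without plasma-like cells, without the highest cell of a gene (42 higher and 52 lower) without 5 endothelial RNA cells, and without single cells of a pattern were added after the data were seen. The alternative without immunoglobulin genes removed Jchain only. No paired analysis was possible because each group is 1 library with no replicate, and no replicate could be left out for the same reason.

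Depth limits these results: 1 UMI is 5.59 CPM in tumour B cells and 1.39 CPM in normal B cells, and the tumour patterns with B-1 genes and with high Jchain hold 6 cells and 1 cell. Intervals do not cover differences between mice.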

Other observations

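Lists of other B cell stages held few transcripts. None of 12 germinal centre genes and none of 11 genes of precursor B cells reached 200 CPM in either sum, and of these Rag1 and Rag2, the recombinases of B cell precursors, had 0 UMIs in both libraries, below 4.17 and 16.8 CPM. For the list counts that follow, 8.39% of all genes measured were called higher and 6.8% lower. Of 3 measured cell cycle genes and 8 genes of oxidative and glycolytic metabolism none was called, with medians of -0.28 and -0.08. Mki67, a gene of dividing cells, was found in 5 of the 10 normal plasma-like cells and in 2 of the 40 normal cells with B-1 genes. Of 9 measured heat shock genes Hspa1a and Hspa1b were 3.25-fold and 2.05-fold higher in tumour B cells, but they were found in 8 and 12 of 53 cells, and the list median was 0.24. Hspa8 and Hspa5 were lowest, at -0.35 and -0.89. Of 3 measured interferon response genes Ly6a, which encodes Sca-1, was 2.15-fold lower (1.75 to 2.66), while Ifi27l2a and Ifi203 were at 0.04 and -0.19.

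By Xist and 4 Y-linked genes, 34 normal B cells came from females and 30 from males, 2 held both and 8 neither. In the tumour library 43 came from females, none from males and 10 held neither. Of the 10 normal plasma-like cells 9 were male and 1 female, and of the 40 normal cells with B-1 genes only 24 were female and 13 male, so that pattern, mouse and sex are mixed in the normal sum. The female plasma-like cell was also among the cells with endothelial RNA, with 60 Fabp4 and 18 Pecam1 UMIs. It was the only normal plasma-like cell in the alternative with female normal cells only.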
